A study of Mus musculus with 4 samples.

Results

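9 genes grouped under the label adhesion molecules of immature and Remak Schwann cells were read from the transcriptomes of control and Zeb2 cKO sciatic nerve. The label is not a finding of these data, and Cdh11 and Cdh13, for example, are known from other cells. The genes were Ncam1, the L1 family members L1cam and Chl1, the classical cadherins Cdh2, Cdh6, Cdh10, Cdh11 and Cdh19, and the truncated cadherin Cdh13. They were chosen by symbol, with earlier results of these data known, and 9 of 9 had usable rows, among 21965 genes with such a row. All 9 were above the minimum of 1 FPKM (fragments per kilobase of transcript, relative to all mapped fragments) as a mean of both libraries, as were 12903 genes in all. The tables hold 1 control library and 1 Zeb2 cKO library, each of total RNA from pooled sciatic nerves of mice of mixed background strain at postnatal day 7. The control group is labelled Control and the other Zeb2 cKO, a conditional knockout of the zinc finger transcription factor Zeb2. The Cre line, the deleted exons and the number of mice in a pool are not given in the sources used here. The labels describe 2 samples per group and name the table of a group under both. Only 1 library per group was analysed here, so there is no spread between replicates behind any value and no test between the groups. Differences are described by size, and the intervals given are 95% intervals of counting error on estimated reads.

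Adhesion molecules of the immunoglobulin and cadherin families hold developing Schwann cells to axons and to each other. As background, Ncam1 and L1cam are carried by immature Schwann cells, are lost from cells that make myelin, and stay on Remak cells, the nonmyelinating Schwann cells that ensheathe several thin axons. N-cadherin (Cdh2) and Cdh19 mark early stages of the lineage, while E-cadherin (Cdh1) joins the turns of the myelinating cell's own membrane in noncompact myelin. Zeb2 belongs to a family of repressors that bind the sequence CACCT and its extended form CACCTG, and Cdh1 is their textbook target in epithelial cells.

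Promoter sequence was at hand for 4 of the 9 genes (RefSeq, GRCm38.p6, 250 bases before to 50 bases after the start of transcription), and 3 of these are printed because they set genes that were higher in the Zeb2 cKO library (Cdh10 and Chl1) beside a gene that was not (L1cam). Capitals mark a match to CACCT or, on the other strand, AGGTG. The windows are chr15:18820079-18820378 on the plus strand for Cdh10, chr6:103510626-103510925 on the plus strand for Chl1 and chrX:73880741-73881040 on the minus strand for L1cam, each written 5′ to 3′ along the gene.
Cdh10: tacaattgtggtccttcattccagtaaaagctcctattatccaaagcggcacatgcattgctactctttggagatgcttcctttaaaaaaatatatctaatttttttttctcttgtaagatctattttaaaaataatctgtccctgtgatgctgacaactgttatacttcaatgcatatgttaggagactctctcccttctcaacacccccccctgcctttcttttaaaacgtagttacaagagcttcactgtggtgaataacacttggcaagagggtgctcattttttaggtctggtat
Chl1: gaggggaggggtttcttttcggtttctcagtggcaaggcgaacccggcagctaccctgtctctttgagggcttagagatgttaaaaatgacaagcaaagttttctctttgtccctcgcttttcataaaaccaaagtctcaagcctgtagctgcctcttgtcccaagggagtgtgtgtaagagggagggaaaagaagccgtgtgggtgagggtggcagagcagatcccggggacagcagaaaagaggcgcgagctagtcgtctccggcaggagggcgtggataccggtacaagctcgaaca
L1cam: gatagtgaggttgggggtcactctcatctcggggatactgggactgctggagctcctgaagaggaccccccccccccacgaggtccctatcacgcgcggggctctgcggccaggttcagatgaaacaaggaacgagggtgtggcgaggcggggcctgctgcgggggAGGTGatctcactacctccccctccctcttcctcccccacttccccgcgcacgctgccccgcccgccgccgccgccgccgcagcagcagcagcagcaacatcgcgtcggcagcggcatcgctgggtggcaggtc
The windows of Cdh10 and Chl1, and that of Cdh6, which is not printed, held 0 matches to CACCT or AGGTG. The L1cam window held 1, as AGGTG, beginning 84 bases before the start, and a second L1cam start in the same table covers that match as well. Cdh6, like L1cam, was within 2-fold (1.32-fold higher), so windows with 0 matches occurred on both sides of that contrast. CACCTG and its complement CAGGTG were in 0 of these windows. Among 32851 promoter windows of this kind, 51.9% held CACCT or AGGTG and 20.2% held CACCTG or CAGGTG, each occurrence of the longer motif being one of the shorter too. These counts describe letters in 300-base windows and say nothing of binding.

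Of the 9 genes, 6 were 2-fold or more higher in the Zeb2 cKO library, 0 were 2-fold or more lower and 3 lay within 2-fold, on the scale of log2((FPKM Zeb2 cKO + 1)/(FPKM control + 1)), called the log2 ratio below. The same size of difference was reached by 8.59% of all 12903 genes measured on the higher side and by 6.25% on the lower side. Because the 9 were chosen with earlier results known, these shares give a scale and not a test. The higher members were Ncam1, Chl1, Cdh2, Cdh10, Cdh11 and Cdh19, and those within 2-fold were L1cam, Cdh6 and Cdh13. The median log2 ratio of the 9 was 1.12, against 0.18 for all genes measured. With the Zeb2 cKO values scaled down by this median (rescaling to the median gene), the count was 4 members higher and 0 lower, against 6.25% and 7.29% of all genes. Cdh11 and Cdh19 were the members that fell short of 2-fold after this scaling. Summed over the 9 genes the level was 97.5 FPKM in control nerve and 295 FPKM in Zeb2 cKO nerve. Since the nerve was profiled as a whole, more or fewer cells of a type and more or less RNA per cell cannot be told apart.

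**Figure D1:**
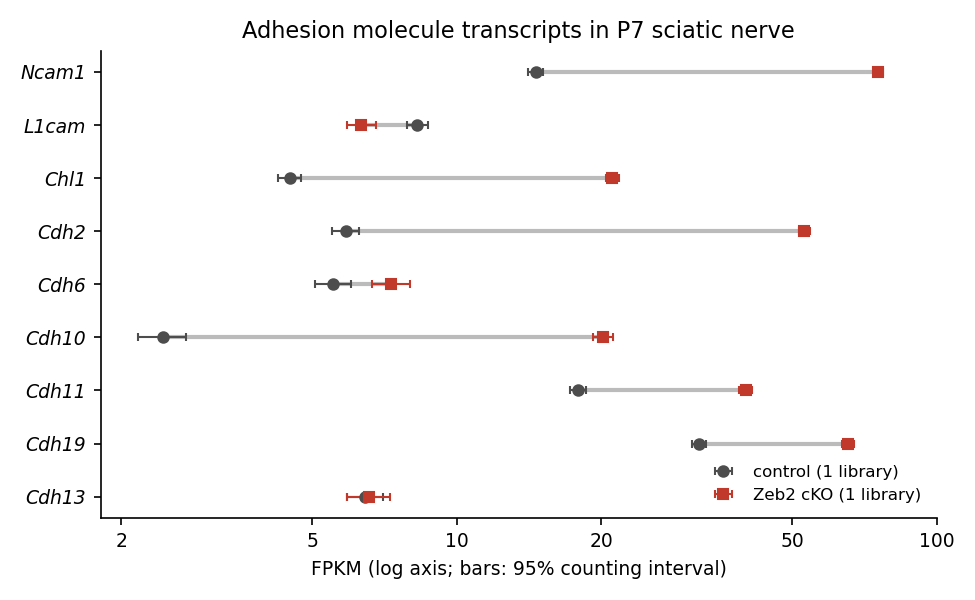
Level of each of the 9 genes in the control library (circles) and the Zeb2 cKO library (squares), in FPKM on a log axis, with 95% counting intervals as bars and a grey line joining the pair. Cdh2 has the widest gap (5.87 to 53.0 FPKM), the symbols of Cdh13 lie on each other, and L1cam is the gene whose square lies left of its circle.

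Among the immunoglobulin superfamily members, Ncam1, which binds itself on the facing cell and also acts through fibroblast growth factor receptors, had the highest level of the 9 in the Zeb2 cKO library. Ncam1 (chromosome 9, 49310251 to 49607174, mm9) was at 14.6 FPKM in control nerve and 75.6 FPKM in Zeb2 cKO nerve, 5.17-fold higher (counting interval 4.96 to 5.40). Its log2 ratio of 2.29 was exceeded by 1.25% of all genes measured. Chl1, the close homologue of L1 that guides neurites and signals with integrins (chromosome 6, 103460870 to 103683029), was at 4.49 FPKM in control nerve and 21.1 FPKM in Zeb2 cKO nerve, 4.69-fold higher (4.40 to 5.01). L1cam, the founding L1 protein, carried by axons and Remak cells (chromosome X, 71099119 to 71126173), was at 8.28 FPKM in control nerve and 6.33 FPKM in Zeb2 cKO nerve, 0.764 of the control level (0.701 to 0.832). The L1 family pair was thus ordered with L1cam above Chl1 in the control and Chl1 above L1cam in the Zeb2 cKO library. The ratio of Ncam1 to L1cam in FPKM was 1.76 in the control and 12.0 in the Zeb2 cKO library.

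The Ncam1 total came from 3 RefSeq transcripts, and each was higher in the Zeb2 cKO library. NM_010875 ends 12993 bases upstream of the other 2 on the minus strand of the gene, the layout of the form that is anchored in the membrane by a glycolipid (GPI). It was at 8.15 FPKM in control nerve and 39.1 FPKM in Zeb2 cKO nerve, 4.79-fold higher. NM_001081445 ends at the downstream end of the gene and was at 6.08 and 34.4 FPKM, 5.67-fold higher. NM_001113204 ends at the same place, is 801 bases longer than NM_001081445 and was at 0.382 and 2.13 FPKM, 5.57-fold higher. NM_010875 made up 55.8% of Ncam1 FPKM in the control and 51.6% in the Zeb2 cKO library, and NM_001113204 2.61% and 2.81%. The 3 transcripts share most of their exons, so these shares are estimates by Cufflinks with no interval in the tables. Gm11149, a gene model inside the Ncam1 locus, was at 1.79 and 10.1 FPKM, and without read strand its reads cannot be told apart from those of Ncam1 where exons overlap.

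**Figure D2:**
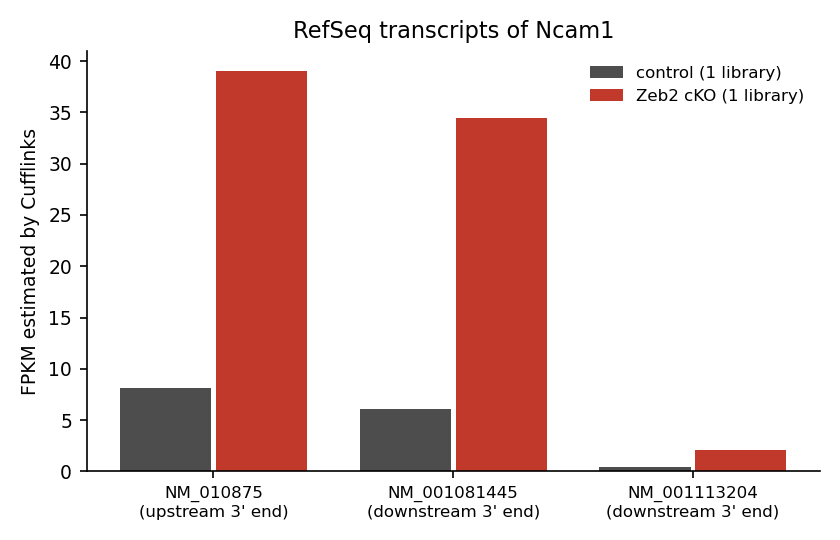
FPKM of the 3 RefSeq transcripts of Ncam1 in the control (grey) and Zeb2 cKO (red) library, on a linear axis from 0, as estimated by Cufflinks. NM_010875, with the upstream 3′ end, is highest in both libraries, at 8.15 and 39.1 FPKM, and NM_001113204 is lowest, at 0.382 and 2.13 FPKM.

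Among the classical cadherins, which bind cadherins on the next cell and hold the actin skeleton through catenins, Cdh2 had the largest ratio of the 9 genes. Cdh2, N-cadherin and the only type I cadherin here (chromosome 18, 16747386 to 16967558), was at 5.87 FPKM in control nerve and 53.0 FPKM in Zeb2 cKO nerve, 9.03-fold higher (8.43 to 9.67). Its log2 ratio of 2.97 was exceeded by 0.705% of all genes measured. Cdh10, a type II cadherin known mainly from brain (chromosome 15, 18750084 to 18943989), was at 2.44 FPKM in control nerve, the lowest level of the 9, and 20.2 FPKM in Zeb2 cKO nerve, 8.29-fold higher (7.32 to 9.41). Its control value rests on about 296 estimated reads. These cadherins and Ncam1 and Chl1 kept a log2 ratio above 1 under each of the 8 alternative settings that apply to a single gene.

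Cdh11 and Cdh19, both type II, were near the 2-fold threshold. Cdh19, a cadherin of the Schwann cell lineage (chromosome 1, 112785772 to 112873949), was at 31.9 FPKM in control nerve, the highest of the 9 there, and 65.3 FPKM in Zeb2 cKO nerve, 2.05-fold higher (1.96 to 2.14), with a log2 ratio of 1.01. Rescaling to the median gene brought that ratio to 0.83. Cdh11, a cadherin of mesenchymal cells and fibroblasts (chromosome 8, 105156895 to 105309011), was at 17.9 FPKM in control nerve and 40.0 FPKM in Zeb2 cKO nerve, 2.24-fold higher (2.13 to 2.35), with a log2 ratio of 1.12 and of 0.94 after rescaling. The log2 ratio of Cdh19 was exceeded by 8.42% of all genes measured and that of Cdh11 by 6.73%. Near the threshold, 345 genes lay from 1 to 1.2 and 538 from 0.8 to 1. Beside Cdh11, 5 of 10 fibroblast markers were 2-fold or more higher and 0 lower, their median log2 ratio was 0.99, and their summed level was 5715 FPKM in control nerve and 9433 FPKM in Zeb2 cKO nerve. Their part in the Cdh11 value was not tested.

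The remaining cadherins differed little. Cdh6, a type II cadherin known from neural crest and kidney (chromosome 15, 12963955 to 13103394), was at 5.53 FPKM in control nerve and 7.30 FPKM in Zeb2 cKO nerve, 1.32-fold higher (1.16 to 1.5). Cdh13, which is GPI-anchored, has no cytoplasmic tail to bind catenins and serves as a receptor for adiponectin in vessels and muscle (chromosome 8, 120807655 to 121847348), was at 6.44 FPKM in control nerve and 6.55 FPKM in Zeb2 cKO nerve, 1.02-fold (0.888 to 1.17). Its counting interval includes equal levels, and its log2 ratio of 0.02 became -0.13 after rescaling. Of the cells that carry Cdh13, endothelial markers had a median log2 ratio of 0.70 with 0 of 10 at 2-fold (summed level 211 and 316 FPKM), and skeletal muscle markers one of -2.97 with 12 of 12 lower (6462 and 766 FPKM). Their part in the Cdh13 value was not tested.

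**Figure D3:**
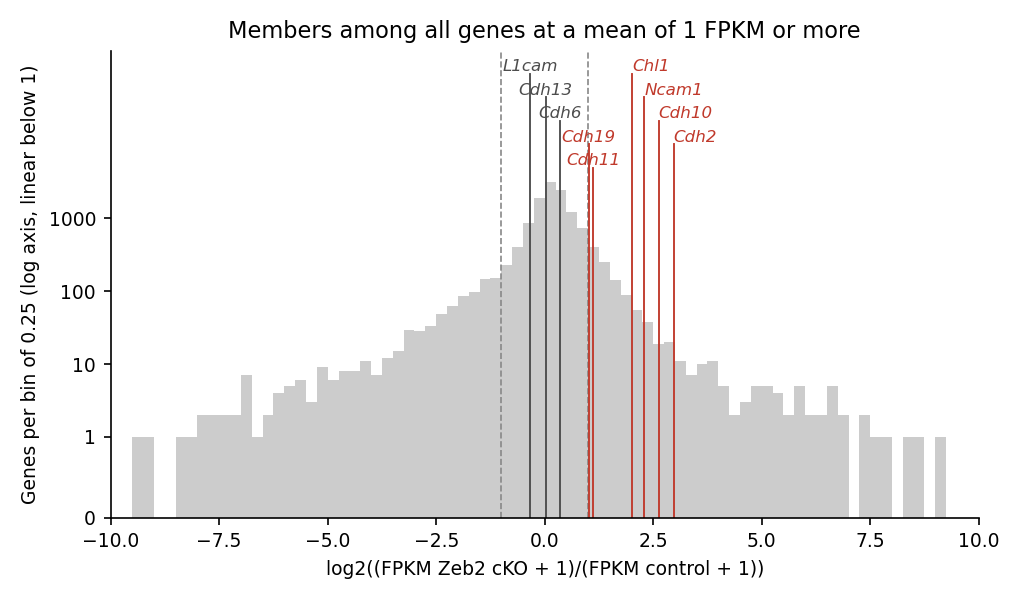
Number of genes per bin of 0.25 in log2 ratio (count axis logarithmic above 1) for the 12903 genes measured, with a line for each of the 9 genes and dashed lines at 2-fold lower and higher. L1cam, Cdh13 and Cdh6 (grey) stand within the peak, Cdh19 and Cdh11 just right of the upper dashed line, and Chl1, Ncam1, Cdh10 and Cdh2 between 2.01 and 2.97.

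The order of the 9 levels differed between the libraries. In the control it ran from Cdh19, Cdh11, Ncam1 and L1cam through Cdh13, Cdh2, Cdh6 and Chl1 to Cdh10, a 13.1-fold range. Counting intervals of the neighbours Cdh13 and Cdh2, and of Cdh2 and Cdh6, overlapped, and those of other neighbours did not. In the Zeb2 cKO library it ran from Ncam1, Cdh19, Cdh2 and Cdh11 through Chl1, Cdh10, Cdh6 and Cdh13 to L1cam, a 12.0-fold range. There the intervals of Chl1 and Cdh10, of Cdh6 and Cdh13, and of Cdh13 and L1cam overlapped. Genes that lay closest to Cdh2 in log2(FPKM + 1) over both libraries were Egr1, Apcdd1 and F3 (distance 0.08, 0.11 and 0.16), and those closest to L1cam were Mrps22, Exoc6b and Klhl2 (0.03 to 0.04). With 2 libraries this likeness means only similar levels.

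Cdh1, which is left out of the 9, differed in the other direction from Cdh2. Cdh1 (chromosome 8, 109127268 to 109194146) was at 43.0 FPKM in control nerve, the highest of the classical cadherins, and 10.6 FPKM in Zeb2 cKO nerve, 4.07-fold lower (3.82 to 4.33). Cdh2 was therefore at 0.136 of the Cdh1 level in the control and at 5.01 times that level in the Zeb2 cKO library. Over 18 classical cadherins with a row, summed FPKM was 144 in the control and 260 in the Zeb2 cKO library, and the 5 members among them held 44.2% and 71.5% of it. The share of Cdh1 was 29.9% and 4.08%, that of Cdh2 4.08% and 20.4%, and that of Cdh10 1.69% and 7.78%. Cdh19 had 22.2% and 25.1%.

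Of the 13 other classical cadherins, 7 were measured, with 2 higher, 3 lower and a median log2 ratio of 0.82. Cdh20 was 3.20-fold higher, at 4.80 FPKM in Zeb2 cKO nerve, and Cdh24 3.46-fold higher, at 3.65 FPKM. Cdh4 was 3.10-fold higher by plain FPKM (0.756 and 2.34 FPKM), but its log2 ratio of 0.93, with the pseudocount of 1 FPKM, fell short of 1. Cdh3, P-cadherin, which neighbours Cdh1 on chromosome 8, was lower (3.30 and 0.958 FPKM). Cdh15, the M-cadherin of muscle cells, was lower as well (1.96 and 0.212 FPKM). Of 4 muscle satellite cell markers measured, 3 were lower, Cdh15 among them, with a median log2 ratio of -1.18. The summed level of all 6 listed was 11.9 and 4.50 FPKM. Cdh5, the endothelial cadherin, was at 28.4 and 51.1 FPKM with a log2 ratio of 0.82.

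Cadherin genes that share a chromosome with a member had ratios both like and unlike that of the member. On chromosome 15, Cdh6 and Cdh10 lie 5.65 Mb apart with log2 ratios of 0.35 and 2.62, and Cdh9, Cdh12 and Cdh18 on the same chromosome were below 0.1 FPKM in both libraries. On chromosome 1, Cdh19 and Cdh20 had log2 ratios of 1.01 and 1.21, and Cdh7, which lies between them, was below 0.05 FPKM in both. On chromosome 8, Cdh11 and Cdh5 lie 1.32 Mb apart with log2 ratios of 1.12 and 0.82, and Cdh1, 3.82 Mb from Cdh11, had a log2 ratio of -1.93.

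**Figure D4:**
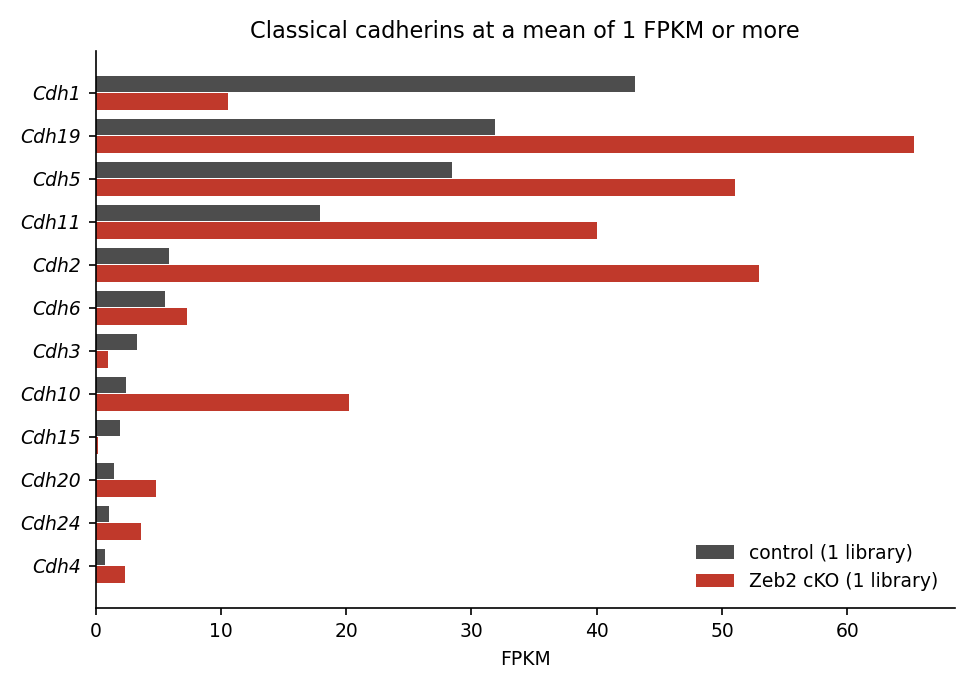
FPKM of the 12 classical cadherins at a mean of 1 FPKM or more, in the control (grey) and the Zeb2 cKO library (red), ordered by control level on a linear axis from 0. The longest control bar is that of Cdh1 (43.0 FPKM) and the longest Zeb2 cKO bar that of Cdh19 (65.3 FPKM). The next longest Zeb2 cKO bar is that of Cdh2 (53.0 FPKM).

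The intracellular partners of classical cadherins mostly lay within 2-fold. Of 13 catenins and junction adaptors measured, 2 were higher and 1 lower, with a median log2 ratio of 0.37. Ctnnb1, beta-catenin, was at 197 FPKM in control nerve and 203 FPKM in Zeb2 cKO nerve, and Ctnna1, the alpha-catenin that links to actin, at 99.8 and 110 FPKM. The higher genes were Vcl, vinculin (30.9 and 63.6 FPKM), and Mllt4, afadin (4.67 and 10.5 FPKM), and neither was 2-fold higher after rescaling to the median gene (0.84 and 0.86). Ctnnal1, an alpha-catenin relative, was 5.53-fold lower (146 and 26.4 FPKM). Of the low genes in this list, Ctnna2 was 2.7-fold higher by plain FPKM (0.586 and 1.56 FPKM), with a log2 ratio of 0.69 through the pseudocount. Ctnnd2 was 10.7-fold higher (0.171 and 1.82 FPKM) but fell below the mean of 1 FPKM and was not counted. Cdh2 was thus 9.03-fold higher in a nerve whose Ctnnb1 and Ctnna1 levels lay within 2-fold of the control.

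Partners and modifiers of Ncam1 and L1 proteins were spread in both directions. Of 17 cytoskeletal and signalling partners, 3 were higher and 2 lower, with a median log2 ratio of 0.17, near that of all genes. Ptprz1, a receptor phosphatase that binds Ncam1 and L1 family proteins, was at 3.17 FPKM in control nerve and 37.9 FPKM in Zeb2 cKO nerve, and Fgfr1, the growth factor receptor, at 26.0 and 75.8 FPKM. Src was also higher. Ank1, an ankyrin of the membrane skeleton, was lower (4.87 and 0.823 FPKM), and so was Fyn, a kinase downstream of Ncam1 (72.2 and 29.0 FPKM). Of 6 enzymes and carriers of polysialic acid synthesis, the sugar chain that loosens Ncam1 adhesion, 1 was higher and 0 lower. That gene was St8sia2, a polysialyltransferase (2.00 and 7.38 FPKM), while St8sia4, the other one, was at 1.39 and 2.29 FPKM. Of 10 proteases that cleave adhesion molecules, 0 were higher and 1, Adam10, was lower (154 and 71.6 FPKM). Adam15 and Mmp14 had the next largest log2 ratios, 0.87 and 0.93.

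Relatives of the 9 genes in other adhesion families included genes with higher and genes with lower levels. Of 5 other L1, NCAM and contactin family genes measured, 3 were higher and 1 lower, with a median log2 ratio of 1.06. Ncam2 was at 2.15 FPKM in control nerve and 7.77 FPKM in Zeb2 cKO nerve, Cntn1 at 5.31 and 12.2 FPKM, and Cntnap1 at 1.15 and 3.88 FPKM. Nfasc, an L1 family protein that myelinating Schwann cells place beside the node of Ranvier, was 45.2-fold lower (27.7 and 0.612 FPKM). Of 15 nectins, SynCAMs and other immunoglobulin adhesion genes, 3 were higher and 4 lower, with a median of -0.01. Alcam was higher (5.72 and 29.0 FPKM), and Cadm3 and Cadm4, which pair axon and Schwann cell along the internode, were lower (53.6 and 5.48 FPKM, 512 and 104 FPKM). Of the neuroligins, Nlgn2 was higher (17.9 and 38.9 FPKM), and Nlgn1 had a log2 ratio of 0.39. Cntn1 and Nlgn2 were short of 2-fold after rescaling to the median gene (0.89 and 0.90). Of 15 protocadherins and atypical cadherins, 4 were higher, with Pcdh8, Pcdh19 and Celsr1 furthest (0.319 and 5.79 FPKM, 0.965 and 6.52 FPKM, 2.44 and 7.85 FPKM), and 1, Pcdh9, was lower. After rescaling, 3 of these 15 were lower.

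Other genes of immature and Remak Schwann cells were mixed in direction. Of 8 measured, Gfap, Tnc and Sox2 were higher (Gfap at 0.914 and 300.1 FPKM), Ngfr and Scn7a were lower (42.8 and 15.8 FPKM, 19.7 and 6.56 FPKM), and the median log2 ratio was 0.79. L1cam, Ngfr and Scn7a, all known from Remak cells, thus had log2 ratios below 0 while Ncam1 and Gfap, also known from them, had ratios above 2. Of 12 genes of myelinating cell adhesion and membrane, 10 were lower and 0 higher, with a median of -3.28 and Mag, Drp2 and Pmp22 the lowest. Of 7 genes of the Schwann lineage, 5 were lower and 0 higher. Sox10, which marks the whole lineage, was at 139 FPKM in control nerve and 69.2 FPKM in Zeb2 cKO nerve. Relative to Sox10, a gene picked after its values were seen, each of the 9 genes was higher in the Zeb2 cKO library. Sox10 had a log2 ratio of -0.996, and 6.25% of all genes measured were at -1 or below. Most genes measured thus stood higher relative to Sox10 too. Foxd3, of the same list, was at 35.7 and 29.4 FPKM, 0.823 of the control level, so L1cam (0.764) was not higher relative to Foxd3. In whole nerve such ratios are not levels per Schwann cell, as with Cdh11 of fibroblasts and Cdh13 of vessels. Per unit of Sox10 FPKM, Cdh2 was at 0.0422 in the control and 0.765 in the Zeb2 cKO library, Cdh19 at 0.230 and 0.943, and L1cam at 0.0596 and 0.0914.

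Several markers of other cells of the nerve moved with the library. Perineurial markers were higher for 7 of 9 genes and lower for 0, with a median log2 ratio of 1.55 and a summed level of 101 FPKM in control nerve and 333 FPKM in Zeb2 cKO nerve (Moxd1, Cldn1 and Dleu7 furthest). Of 8 pericyte and smooth muscle markers, 2 were higher (195 and 310 FPKM summed), and of 5 adipocyte markers 4 were (217 and 526 FPKM). Neuronal transcripts had 0 of 8 at 2-fold and summed levels of 48.9 and 46.5 FPKM, macrophage markers 0 of 8 and 126 and 119 FPKM, and 2 of 3 melanocyte markers were lower (20.4 and 6.10 FPKM). Counts cover measured genes only, while sums cover every listed gene with a usable row (12 neuronal, 6 melanocyte and 6 adipocyte genes). After rescaling to the median gene, 6 perineurial, 3 fibroblast, 0 pericyte and smooth muscle, and 2 adipocyte markers were 2-fold or more higher. In these marker lists 1 gene, Mlana of the melanocyte list, was listed at 0 in a library. Their part in the values of Ncam1, Chl1, Cdh2 and Cdh10 was not tested. Zeb2 itself was at 34.4 and 19.5 FPKM, summed over all its exons.

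**Figure D5:**
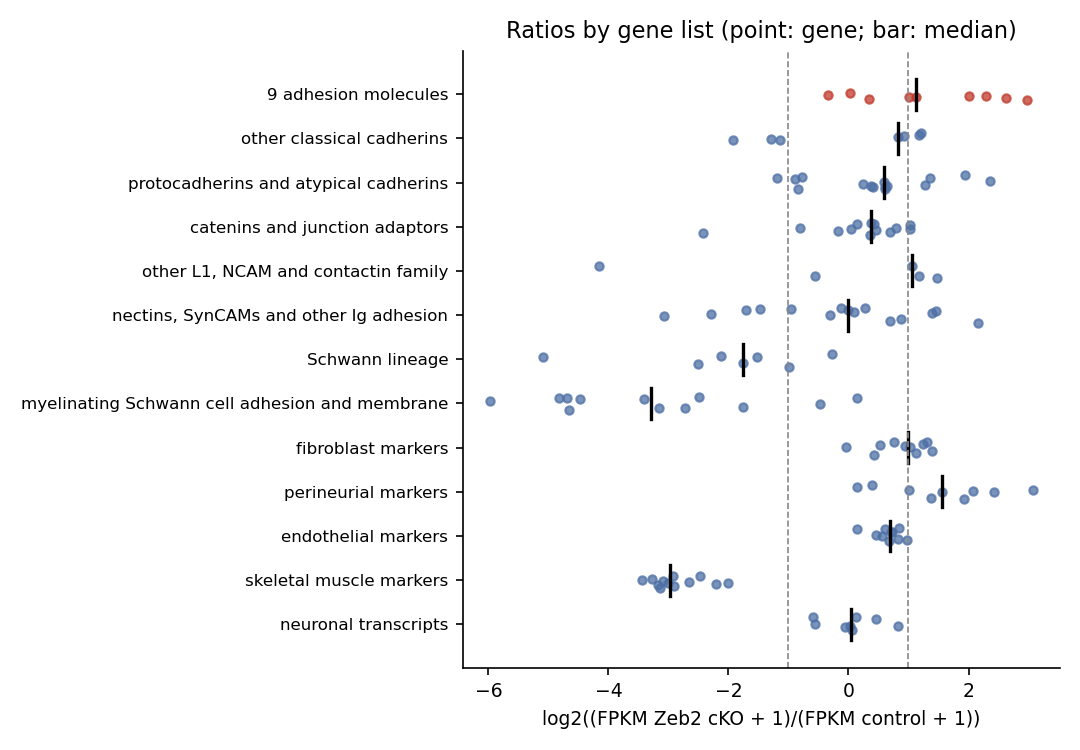
Log2 ratio of each measured gene (points) and the median (black bar) for the 9 adhesion molecules (red) and 12 other gene lists (blue), with dashed lines at 2-fold lower and higher. The medians are 1.12 for the 9 adhesion molecules, 1.55 for perineurial markers, 0.99 for fibroblast markers, -3.28 for myelinating Schwann cell genes and -2.97 for skeletal muscle markers; vertical scatter within a list carries no value.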

How the data were processed

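Total RNA of pooled sciatic nerves was extracted with Trizol and sequenced from Illumina TruSeq libraries, per the labels' protocols. The authors used CASAVA, TopHat, Cufflinks and Cuffdiff on mm9, per the submitters' processing notes; versions and bias correction are not given in the sources used here. Each deposited table gives the locus, length, coverage signal (mean read depth per base), FPKM and status of every RefSeq transcript, per the file headers. A table is named by the labels of both samples of a group and was assigned to that group.

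The 28107 rows were joined on transcript and locus, 295 rows not marked OK in both libraries were left out, and FPKM was summed by symbol. Log2 ratios used a pseudocount of 1 FPKM, which understates changes of low genes, and genes at a mean of at least 1 FPKM. Folds are plain FPKM ratios. Reads were estimated as coverage times length over 52.5 bases, the lowest cluster of values: 29771760 in the control and 20316941 in the Zeb2 cKO library. Poisson intervals on levels and Clopper-Pearson intervals on folds (95%) cover counting error only. Analyses ran in Python 3.11.15 with numpy, pandas and scipy 1.17.1, and the counting code was tested on simulated data.

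The 9 members and 22 other gene lists (9 entries matched an older symbol and 1 had no usable row) were chosen with earlier results of these data known. Named are the members, Zeb2, Cdh1, overlapping genes, nearest genes to the highest and lowest member, and the 3 largest absolute ratios of the adhesion lists; Ctnnb1, Ctnna1, Sox10 and other list genes were added after their values were seen. Loci are mm9, counted from 1; promoters and strand come from GRCm38 annotation and were not mixed with them. Some genes that this rule names are not reported here. Alternatives were other pseudocounts, filters, scalings, statuses, row choices and fold thresholds.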

Additional observations from a re-analysis of the deposited data

How the results depend on the processing

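No paired analysis was possible because each group has a single library in the data used, which also leaves no replicate to drop. The count of members 2-fold or more higher, 6 as reported, was 4 to 6, and 0 members were lower, under the 10 alternatives. The median log2 ratio of the members, 1.12 as reported, was 0.98 with a pseudocount of 5 FPKM, 0.94 after rescaling to the median gene and 1.03 after rescaling to the upper quartile. The count over all genes was 477 higher and 529 lower with a pseudocount of 5 FPKM, 739 higher at a mean of at least 5 FPKM, 2537 higher and 1266 lower at 1.5-fold, and 401 higher and 457 lower at 3-fold. Single members kept their sign under every alternative except Cdh13, whose log2 ratio ranged from -0.13 to 0.03. Cdh19 was at 0.83 to 1.03 and Cdh11 at 0.94 to 1.16, on both sides of the threshold. Relative to its fold, the counting interval was widest for Cdh13 (0.888 to 1.17), which had 525 and 364 estimated reads.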
